A study of Mus musculus with 20 samples.

Results

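The data describe what 12 days of crotonic acid did to the RNA of mouse cells on the way from fibroblasts to chemically induced pluripotent stem cells. The comparison holds 4 of the 20 samples of the series: 2 RNA-seq libraries of day 28 reprogramming cells that had received 6 to 8 mM crotonic acid (adjusted to pH 7) throughout days 16 to 28 of induction, and 2 libraries of day 28 cells reprogrammed without it. They were chosen by their labels alone, with the replicate number of each library kept as a block. All the cells were of strain B6DBA and all went through the same kind of chemical induction. That the control cells received the same reprogramming compounds is inferred from this. What those compounds were, and whether the replicates were separate cultures, is not said in the labels, so a p-value here reflects nothing beyond the scatter of these particular libraries, which could be technical. The same fit also held 2 libraries each of untreated cells at days 16, 20 and 24 and of crotonic acid cells at days 20 and 24 (4 and 8 days of the acid). For levels, 1 library of mouse embryonic fibroblasts (MEF), 1 of an embryonic stem (ES) cell line and 3 of chemically induced (CiPS) lines were read: 1 line from the three-step method and 2 from the crotonic acid method. A line made with BrdU was not analysed here.

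Crotonic acid is a short-chain unsaturated fatty acid. Cells turn it into crotonyl-CoA, which p300 and other acyltransferases use to put crotonyl groups on histone lysines, and class I histone deacetylases and sirtuins take these groups off again. Chemical reprogramming passes through a state like extraembryonic endoderm, rich in Gata4, Gata6, Sox17 and basement membrane, before pluripotency genes come on. A small share of mouse pluripotent cells briefly switches on genes of the 2-cell embryo such as Zscan4, which has been tied to telomere lengthening.

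The untreated and treated day 28 cultures both held genes of that endoderm-like state. Gata4 stood at 663 and 959 CPM (read counts scaled to library size, with TMM factors) in the untreated libraries and at 552 and 722 CPM in the treated ones. Pou5f1, which encodes the pluripotency factor Oct4, stood at 15.4 and 10.3 CPM untreated and 22.6 and 19.14 CPM treated. In FPKM, which allows for gene length, Pou5f1 was at 6.61 and 4.39 untreated, 9.68 and 8.16 treated, and 112 in the ES line. These were bulk cultures, in which fewer cells of a type and less RNA per cell cannot be told apart.

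The 4 day 28 libraries held 19433464 and 22378745 counts untreated and 20586199 and 21485800 treated, and the 14 libraries of the fit held 17475848 to 24015100. Treated replicate 1 stood apart by the sum of 13 hepatocyte markers, called liver transcripts here, whose source is not known. Its summed level of 13 hepatocyte markers (the list of 15 without F2 and Ahsg, left out after their values were seen) was 139 CPM, against 7.36 CPM in treated replicate 2 and 9.996 and 3.47 CPM in the untreated libraries. Day 20 crotonic acid replicate 2 carried 48.4 CPM of the same markers, and the day 16, day 24 and remaining day 20 libraries 1.22 to 8.33 CPM. With F2 and Ahsg, the sums at day 28 were 403 and 556 CPM untreated and 417 and 348 CPM treated, and treated replicate 1 did not stand apart. Counts are also given without both libraries that hold liver transcripts, a fit that leaves treated replicate 2 as the only treated library at day 28. Summed macrophage markers (10 genes) lay between 20.7 and 27.8 CPM in the 4 day 28 libraries.

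Of 17387 genes tested, 107 (0.615%) passed an adjusted p of 0.05 in edgeR's quasi-likelihood test, 52 of them higher (0.299%) and 55 lower (0.316%) with crotonic acid. Among the raised genes 40 of 52 changed by more than 2-fold, and among the lowered genes 25 of 55, with median log2 changes of 1.47 and -0.97. The raised genes rose by 0.53 to 3.20 on the log2 scale, and the lowered genes fell by 0.51 to 3.33. The raised genes include Slc10a6 (the largest of their changes), 4930461G14Rik and Gm5989, which passed the filter on low counts only through the treated day 28 libraries and so had to lie higher. Every one of the 107 moved the same way in both replicate pairs. The 107 were chosen by their values in these same libraries, so this count and the next ones describe that choice and support nothing. The treated libraries lay above both untreated ones for 51 of the 52 (16.2% of all tested genes did) and below both for 53 of the 55 (15.5% of all tested genes did). At an unadjusted p of 0.05, 1968 genes (11.3%) passed.

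The calls depended on the replicate block and on single libraries. The 107 kept their directions, but these fits share the libraries by which they were chosen, so that supports nothing. Without the block no gene passed (943, or 5.42%, at an unadjusted p of 0.05), and all 107 kept their sign. Without crotonic acid day 28 replicate 1 the count was 11, without crotonic acid day 28 replicate 2 it was 15, and without untreated day 28 replicate 2 it was 14, while 138 passed without untreated day 28 replicate 1. Without either library of day 16 it was 477 (replicate 1) or 470 (replicate 2). Leaving out day 20 or day 24 libraries gave 40 and 39 (untreated day 20 replicates 1 and 2), 56 and 47 (crotonic acid day 20), 37 and 39 (untreated day 24) and 46 and 45 (crotonic acid day 24). Without both libraries that hold liver transcripts 3 genes passed: Calcb, Slc7a11 and Slc6a2. Of the 107, Calcb, Slc7a11, Dmgdh and Slc6a2 were among the 5 that passed in all 14 fits that left out 1 library. With scaling by total count, 120 genes passed, of which 64.2% were higher, against 48.6% with TMM.

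**Figure D1:**
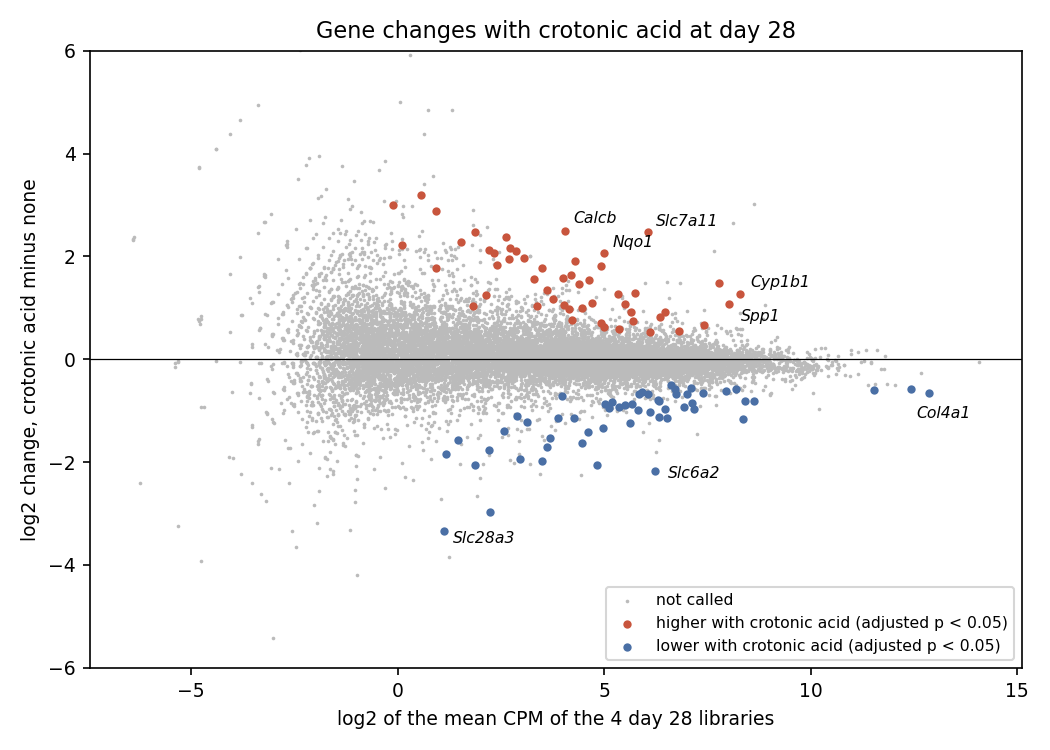
Change of each tested gene with crotonic acid at day 28 (vertical axis, log2) against its mean CPM over the 4 day 28 libraries (horizontal axis, log2). Red points are the 52 genes that rose and blue points the 55 that fell, and grey points did not pass. A further 18 genes lie outside the vertical range. Calcb and Slc7a11 lie high in the plot, while the highly counted Col4a1 fell by only 0.65.

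The start regions of a few of the genes that changed are shown here. The windows run from 250 bases before to 50 bases after the annotated start, from RefSeq on GRCm38.p6, and 81 of the 107 called genes had one. The first is the Slc7a11 window (chr3:50443564-50443863, minus strand), shown because Slc7a11 was among the largest rises and holds the 8 letters of a CARE element, the type of site bound by ATF4 with C/EBP partners, once on each strand. Capitals mark both copies, at bases 185 to 192 and 204 to 211 of the window.
Slc7a11: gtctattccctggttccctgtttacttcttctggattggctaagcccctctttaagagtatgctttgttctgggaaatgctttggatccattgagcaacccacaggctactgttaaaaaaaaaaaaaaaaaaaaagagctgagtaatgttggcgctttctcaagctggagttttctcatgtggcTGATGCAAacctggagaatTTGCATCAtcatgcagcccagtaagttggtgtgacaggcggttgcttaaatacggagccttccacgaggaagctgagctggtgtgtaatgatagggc
The letters TGATGCAA, searched on both strands, occur in 0.895% of the 32851 windows and in no other called gene's window. A type of NRF2 site, TGACNNNGC on either strand, occurs in 12.4% of all windows. Counted by gene, 5 of 39 raised genes and 10 of 42 lowered genes hold it in any of their windows. A gene may have several windows, so these counts of genes cannot be set against the share of windows. The Slc7a11 and Nqo1 windows do not hold it. A match is only a run of letters and no binding was measured.

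The next windows are those of the 2-cell embryo genes Zscan4d (chr7:11166099-11166398, minus strand) and Zscan4f (chr7:11397665-11397964, plus strand), shown because both rose and because their likeness limits how reads can be assigned. Capitals mark the letters TATAAAA, found in 5.48% of all windows.
Zscan4d: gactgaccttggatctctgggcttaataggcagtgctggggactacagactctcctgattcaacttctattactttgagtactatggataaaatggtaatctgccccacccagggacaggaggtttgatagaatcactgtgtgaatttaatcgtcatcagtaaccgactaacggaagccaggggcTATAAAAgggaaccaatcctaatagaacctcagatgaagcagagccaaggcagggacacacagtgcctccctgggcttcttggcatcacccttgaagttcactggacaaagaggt
Zscan4f: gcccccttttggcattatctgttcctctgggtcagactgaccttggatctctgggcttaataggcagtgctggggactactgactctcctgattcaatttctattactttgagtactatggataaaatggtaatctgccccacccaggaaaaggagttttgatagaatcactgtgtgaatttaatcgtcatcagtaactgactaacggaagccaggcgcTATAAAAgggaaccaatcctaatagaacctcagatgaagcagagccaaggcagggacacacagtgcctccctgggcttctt
Over the 266 bases the windows share, 259 are identical (97.4%). Zscan4 genes are near-identical copies, so counts may be split between them and the value of any single copy is uncertain.

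The last window is that of Col4a2 (chr8:11312555-11312854, plus strand), shown because Col4a1 and Col4a2, which encode the chains of collagen IV, start head to head and fell together. Capitals mark the 78 bases that also belong to the Col4a1 window, which runs on the opposite strand.
Col4a2: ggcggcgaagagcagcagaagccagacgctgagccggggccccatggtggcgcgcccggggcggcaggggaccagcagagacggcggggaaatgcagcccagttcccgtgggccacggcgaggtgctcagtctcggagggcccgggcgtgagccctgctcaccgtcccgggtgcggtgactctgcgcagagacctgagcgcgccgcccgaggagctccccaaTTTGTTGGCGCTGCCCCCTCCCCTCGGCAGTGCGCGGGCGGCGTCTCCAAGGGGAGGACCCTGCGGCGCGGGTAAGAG

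Among the rises, the calcitonin gene-related peptides (CGRP) gave the smallest p of all genes. Calcb, which encodes the vasodilator neuropeptide beta-CGRP, was at 6.45 and 3.76 CPM untreated and 31.4 and 25.003 CPM treated, a rise of 2.49 ± 0.17 on the log2 scale (SE, 2 libraries a group, adjusted p = 0.000445). Its neighbour in function Calca, the gene of calcitonin and alpha-CGRP, was at 1.43 and 0.571 CPM and 6.45 and 3.14 CPM, a rise of 2.29 ± 0.28 (adjusted p = 0.00615). Treated and untreated libraries did not overlap for either gene. Of the 9 calcitonin family members and receptors tested (of 11), these were the calls, and none fell (0.299% of all tested genes rose and 0.316% fell). The receptor partner Ramp1 was at 31.7 and 38.4 CPM untreated and 20.2 and 21.3 CPM treated (log2 change -0.76 ± 0.16, adjusted p = 0.0630).

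A pair of redox genes rose, in a list whose other members did not pass. Slc7a11, the cystine-importing subunit of the xCT antiporter that supplies glutathione synthesis, was at 20.2 and 20.6 CPM untreated and 109 and 116 CPM treated. It rose by 2.47 ± 0.24 on the log2 scale (adjusted p = 0.00255), and the pairs of libraries were nearly superimposed within each group. Nqo1, a quinone reductase and a classic target of the oxidative stress factor NRF2, was at 17.2 and 8.32 CPM and 51.4 and 50.99 CPM, a rise of 2.06 ± 0.24 (adjusted p = 0.00528). Of 31 NRF2 target genes tested, these 2 rose, none fell and 25 lay higher. Their median log2 change was 0.18, beside -0.01 for all tested genes, of which 0.299% rose, 0.316% fell and 48.9% lay higher. Next by p came the glutathione transferase genes Gsta3, at 3.12 and 1.33 CPM untreated and 7.22 and 3.28 CPM treated (log2 change 1.25 ± 0.24, adjusted p = 0.0527), and Gsta4 (log2 change 0.76 ± 0.19, adjusted p = 0.118).

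Slc7a11 is also a target of ATF4, the transcription factor of the amino acid response, and is not counted in the ATF4 list. Of 36 other ATF4 targets tested, none rose, 1 fell and 28 lay lower, with a median log2 change of -0.19; of all tested genes 0.316% fell and 51.1% lay lower. The one that fell, Stc2, encodes a secreted stanniocalcin and was at 16.98 and 23.6 CPM untreated and 7.32 and 11.4 CPM treated (log2 change -1.13 ± 0.20, adjusted p = 0.0383). Ddit3, the stress factor CHOP, was at 27.3 and 21.9 CPM and 14.6 and 16.3 CPM (log2 change -0.66 ± 0.16, adjusted p = 0.106). Cbs, which makes cystathionine on the route from homocysteine to cysteine, lay the other way at 5.66 and 5.18 CPM and 11.5 and 11.9 CPM (log2 change 1.10 ± 0.28, adjusted p = 0.117). Of 19 chaperones and sensors of the endoplasmic reticulum none passed, and their median was -0.01.

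Among the 2-cell embryo genes, copies of Zscan4 rose with crotonic acid from a few CPM. Zscan4d was at 3.54 and 1.57 CPM untreated and 12.3 and 8.96 CPM treated, a rise of 2.16 ± 0.34 (adjusted p = 0.0316). Zscan4f was at 2.59 and 1.47 CPM and 11.7 and 8.73 CPM, a rise of 2.37 ± 0.38 (adjusted p = 0.0473). In both genes the treated libraries lay well clear of the untreated ones. Zscan4c, another copy, missed the threshold at 4.65 and 2.81 CPM and 16.4 and 12.8 CPM (log2 change 2.01 ± 0.33, adjusted p = 0.0516). Of 46 listed genes, 41 were in the count table and 28 were tested. Of these 2 rose, none fell and 27 lay higher, with a median log2 change of 2.12 (0.299% of all tested genes rose, 0.316% fell and 48.9% lay higher). As many as 11 of the 28 passed the filter on low counts only through the treated day 28 libraries and had to lie higher, so that count and median describe the list and support nothing. The summed level of the list was 189 and 169 CPM untreated and 301 and 260 CPM treated, much of it from Eif1a, a translation initiation factor gene at 136 and 129.8 CPM and 169 and 151 CPM. The 1 gene that lay lower was Slc34a2, a phosphate transporter, at 10.1 and 13.8 CPM untreated and 6.36 and 7.41 CPM treated (log2 change -0.79 ± 0.29, adjusted p = 0.322).

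**Figure D2:**
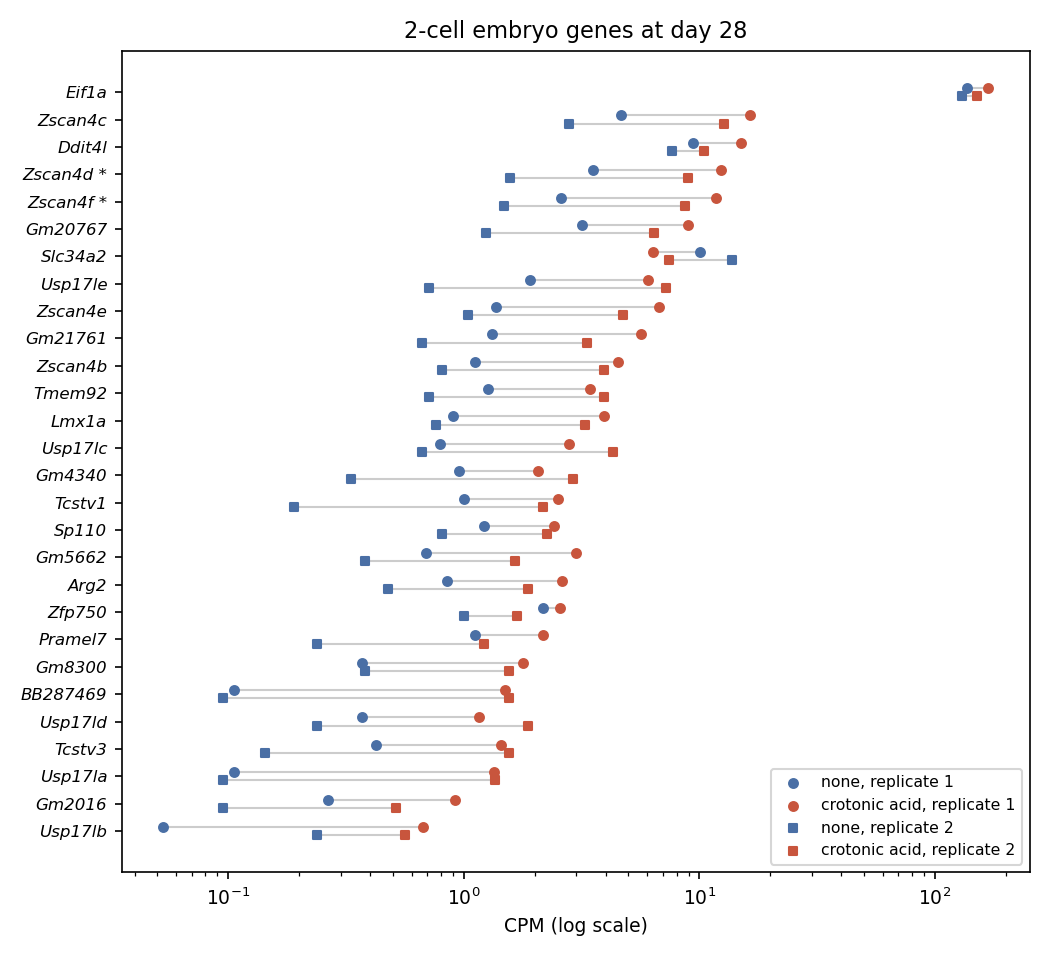
CPM (log axis) of the 28 tested 2-cell embryo genes in the 4 day 28 libraries, ordered by their treated mean; blue is untreated, red is crotonic acid, circles are replicate 1, squares replicate 2, grey lines join the pair of a replicate, and asterisks mark the 2 that rose. Both red points lie to the right of both blue ones in 26 of 28 genes (16.2% of all tested genes), but 11 of the 28 passed the filter on low counts only through the treated libraries and had to lie higher.

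Zscan4f was listed at 0 FPKM in all 4 day 20 libraries, and at day 24 it was at 0.0865 and 0.0957 FPKM untreated and 0.394 and 0.0837 FPKM treated. At day 28 it was at 1.03 and 0.580 FPKM untreated and 4.65 and 3.44 FPKM treated. The ES line held 50.4 FPKM and the CiPS lines 41.4, 13.5 and 8.30 FPKM, so the treated day 28 cultures were still below every pluripotent line. Called genes outside the list that were likewise at no more than 0.1 FPKM in every day 20 library were Pramef25, BC080695, Gm5989, Slc10a6 and the lowered Slc28a3. Pramef25, of the PRAME family of germ line and embryo genes, was at 3.39 and 2.05 CPM untreated and 11.8 and 8.77 CPM treated at day 28 (log2 change 1.95 ± 0.33, adjusted p = 0.0473).

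Pluripotency genes themselves gave no call. Of 29 tested, none rose or fell, 15 lay higher and the median was 0.02. The filter on low counts kept 1 of the 29 only through the treated day 28 libraries. Nr5a2, a nuclear receptor that sustains Pou5f1, was at 3.28 and 7.90 CPM untreated and 1.88 and 2.81 CPM treated (log2 change -1.18 ± 0.24, adjusted p = 0.0626). Dppa2, an activator of the 2-cell genes, lay the other way at 6.35 and 4.33 CPM and 10.1 and 10.2 CPM (log2 change 0.93 ± 0.26, adjusted p = 0.169), and Pou5f1 changed by 0.72 ± 0.35 (adjusted p = 0.480). Of 30 germ cell genes none passed, 25 lay higher (48.9% of all tested genes did) and the median was 0.33. Tdrd12, a factor of the piRNA pathway, had the smallest p of them, at 1.80 and 1.71 CPM untreated and 3.66 and 4.13 CPM treated (log2 change 1.15 ± 0.26, adjusted p = 0.0821).

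Other genes that rose are given here one by one, without a count of their kinds. Nppc, C-type natriuretic peptide, was at 5.45 and 1.66 CPM untreated and 15.1 and 11.2 CPM treated (log2 change 1.97 ± 0.34, adjusted p = 0.0383). Sct, the hormone secretin, was at 5.39 and 4.57 CPM and 15.3 and 14.2 CPM (log2 change 1.57 ± 0.19, adjusted p = 0.00659). Apela, a ligand of the apelin receptor made by pluripotent cells, was at 16.8 and 32.2 CPM and 54.5 and 58.8 CPM (log2 change 1.26 ± 0.21, adjusted p = 0.0305). None of these groups overlapped, although for Nppc the untreated replicates lay further apart in ratio than the treated ones. The vasopressin receptor gene Avpr1a was at 3.44 and 0.523 CPM untreated and 9.53 and 5.11 CPM treated (log2 change 2.13 ± 0.40, adjusted p = 0.0473). Zpld1 was at 5.02 and 0.713 CPM and 17.7 and 5.63 CPM (log2 change 2.11 ± 0.38, adjusted p = 0.0418), and Rmdn2 was at 12.9 and 4.33 CPM and 34.3 and 27.3 CPM (log2 change 1.91 ± 0.29, adjusted p = 0.0206). Spp1, the matrix protein osteopontin, was at 219.8 and 118 CPM and 435 and 260.5 CPM (log2 change 1.07 ± 0.14, adjusted p = 0.00930). Ecel1, a neuronal membrane peptidase, rose by 1.64 ± 0.23 on the log2 scale, and Qpct, which caps peptides with pyroglutamate, by 1.09 ± 0.17 (adjusted p = 0.0121 and 0.0251).

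**Figure D3:**
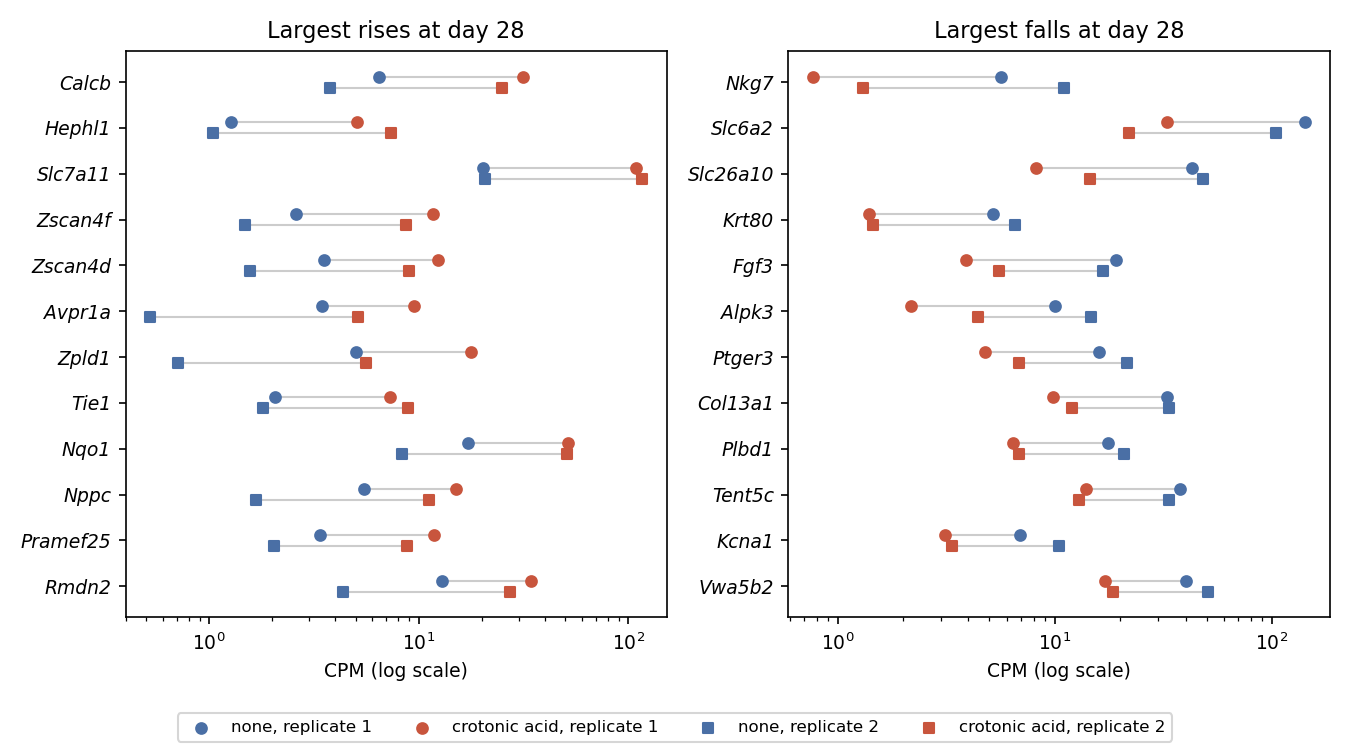
CPM (log axis) in each day 28 library of the 12 largest rises (left) and 12 largest falls (right) among called genes with a mean of at least 5 CPM in the higher group and no overlap between groups. Blue is untreated, red is crotonic acid, circles are replicate 1 and squares replicate 2, and grey lines join the pair of a replicate. Red and blue points are separated in each gene, while the untreated points of Avpr1a and Zpld1 lie far apart.

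Hephl1, a copper-dependent ferroxidase, was at 1.27 and 1.05 CPM untreated and 5.06 and 7.36 CPM treated (log2 change 2.48 ± 0.43, adjusted p = 0.0371). Dmgdh, the mitochondrial dimethylglycine dehydrogenase, was at 29.2 and 33.4 CPM untreated and 69.96 and 82.3 CPM treated (log2 change 1.28 ± 0.12, adjusted p = 0.00255). Bhmt2, a methyltransferase that makes methionine from homocysteine, was at 25.3 and 33.5 CPM and 57.9 and 64.4 CPM (log2 change 1.07 ± 0.12, adjusted p = 0.00528). Liver expresses both genes, and whether liver RNA had a part in their rises was not tested. Treated replicate 2, with 7.36 CPM of the hepatocyte markers, held more of both than treated replicate 1, with 139 CPM. Without both libraries that hold liver transcripts the log2 changes were 1.22 for Dmgdh and 0.96 for Bhmt2, with treated replicate 2 the only treated day 28 library left. In a list of 15 betaine and methionine enzymes, put together after these values were seen, those 2 rose, none fell and 11 lay higher (median 0.28). Over all tested genes 0.299% rose and 48.9% lay higher. In this list 2 members passed the filter on low counts only through the treated day 28 libraries and had to lie higher, so its count and median support nothing. Slc38a4, an amino acid transporter imprinted in mouse placenta, was at 79.6 and 156 CPM untreated and 291 and 350.0 CPM treated (log2 change 1.49 ± 0.17, adjusted p = 0.00528). Cyp1b1, a cytochrome P450, was at 241 and 134 CPM and 455 and 420.4 CPM (log2 change 1.28 ± 0.20, adjusted p = 0.0248). Crot, the carnitine transferase of peroxisomal fatty acids, had a smaller rise of 0.53 ± 0.10 (adjusted p = 0.0473). It was not among the 37 genes of fatty acid breakdown tested, none of which passed (median 0.08).

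Dio3, which inactivates thyroid hormone and is imprinted in the Dlk1-Dio3 region, was at 14.9 and 11.9 CPM untreated and 47.1 and 47.6 CPM treated (log2 change 1.82 ± 0.23, adjusted p = 0.00897). Its neighbours in that region did not pass. Dlk1, a Notch-like growth regulator, was at 116 and 329 CPM untreated and 40.2 and 124 CPM treated (log2 change -1.45 ± 0.28, adjusted p = 0.0516), and Meg3, a maternally expressed non-coding RNA, changed by -0.58 ± 0.17 (adjusted p = 0.174). Of 27 imprinted genes tested Dio3 alone passed, 13 lay higher and the median was -0.02 (0.299% of all tested genes rose, 0.316% fell and 48.9% lay higher). They moved both ways: log2 changes ran from -1.45 (Dlk1) to 2.39 (Magel2, adjusted p = 0.0534), and 15 of the 27 were under an unadjusted p of 0.05, beside 11.3% of all genes. The list was chosen with earlier results of these data known, so that count describes it and supports nothing. Slc38a4 was not in that list.

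Among developmental regulators, Cdx2, the homeobox gene of trophoblast and gut, was at 10.4 and 19.7 CPM untreated and 23.3 and 35.3 CPM treated (log2 change 1.003 ± 0.17, adjusted p = 0.0383). With Sct it was 1 of 2 rises among 13 trophoblast genes tested, with no fall and a median of 0.21. For this and the next lists, 0.299% of all tested genes rose, 0.316% fell and 51.1% lay lower. The trophoblast keratin Krt7 lay lower, at 11.1 and 18.7 CPM untreated and 2.50 and 4.78 CPM treated (log2 change -2.03 ± 0.49, adjusted p = 0.105). Id1, a direct target of bone morphogenetic proteins (BMP), was at 41.1 and 29.2 CPM and 74.1 and 57.7 CPM (log2 change 0.91 ± 0.15, adjusted p = 0.0268). Grem1, which blocks BMP ligands, was at 9.57 and 6.18 CPM and 28.6 and 10.04 CPM (log2 change 1.17 ± 0.22, adjusted p = 0.0499), with treated replicate 2 only just above untreated replicate 1. These were the 2 rises of 17 BMP pathway genes (no fall, median 0.08). Tie1, a receptor of endothelial cells, was at 2.06 and 1.81 CPM untreated and 7.32 and 8.87 CPM treated (log2 change 2.07 ± 0.29, adjusted p = 0.0147). It was the 1 call of 6 endothelial markers, of which the 5 others lay lower (median -0.57). Endothelial Pecam1 was below 1 CPM in every day 28 library, and the summed level of the 6 markers was 57.9 and 62.7 CPM untreated and 52.5 and 50.9 CPM treated.

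The genes of collagen IV and of a laminin chain fell. Col4a1, a chain of collagen IV, was at 7601 and 10588 CPM untreated and 5281 and 6203 CPM treated (log2 change -0.65 ± 0.10, adjusted p = 0.0287). Its partner Col4a2 was at 5581 and 7601 CPM and 3927 and 4826 CPM (log2 change -0.58 ± 0.10, adjusted p = 0.0372). Lamb1, a laminin chain, was at 3159.5 and 4035 CPM and 2258 and 2484 CPM (log2 change -0.59 ± 0.10, adjusted p = 0.0371). Groups did not overlap in any of the 3, and the falls were about 1.5-fold. Untreated replicate 2 was the highest of the 4 libraries for each. Another 3 genes, of enzymes that modify collagen, fell as well. P4ha1, a prolyl hydroxylase, was at 306 and 392 CPM untreated and 219 and 247 CPM treated (log2 change -0.58 ± 0.10, adjusted p = 0.0385). The lysyl hydroxylases Plod2 and Plod3 fell by more, with log2 changes of -0.80 ± 0.14 and -0.81 ± 0.15 (adjusted p = 0.0432 and 0.0432).

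Of the 34 basement membrane proteins and enzymes tested, those 6 fell, 2 rose and 21 lay lower, with a median log2 change of -0.12. Of all tested genes 51.1% lay lower and 0.316% fell. Without untreated day 28 replicate 1 the median was -0.36 with 5 falls, without crotonic acid day 28 replicate 2 it was -0.30 with 0, and over all settings 0 to 12 fell. The rises were Lama5, a laminin chain of epithelia, at 104 and 159 CPM untreated and 168 and 249 CPM treated (log2 change 0.67 ± 0.12, adjusted p = 0.0461), and Frem1, a low-level protein of skin basement membrane (log2 change 1.04 ± 0.20, adjusted p = 0.0473). Of 27 extraembryonic endoderm genes 3 fell (Col4a1, Col4a2 and Lamb1), none rose and 21 lay lower, with a median of -0.32. The regulators of that state did not pass. Gata4 changed by -0.33 ± 0.12 (adjusted p = 0.305), Gata6 by -0.43 ± 0.15 (adjusted p = 0.260) and Sox17 by -0.20 ± 0.12 (adjusted p = 0.624). Dab2, an endocytic adaptor of that lineage, was at 242 and 305 CPM untreated and 146 and 149 CPM treated (log2 change -0.88 ± 0.20, adjusted p = 0.0896).

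P4ha1 and Plod2 also belong to the genes that cells raise in low oxygen, as do the next genes. Slc2a1, the glucose transporter GLUT1, was at 135 and 243 CPM untreated and 62.4 and 134 CPM treated (log2 change -0.97 ± 0.16, adjusted p = 0.0334). Vegfa, the vascular growth factor, was at 263 and 338 CPM and 169 and 226 CPM (log2 change -0.61 ± 0.11, adjusted p = 0.0461). For Slc2a1 the replicates differed about as much as the treatment did, and the groups only just separated. P4htm, an oxygen-dependent hydroxylase, was at 10.4 and 9.89 CPM and 4.19 and 5.25 CPM (log2 change -1.11 ± 0.21, adjusted p = 0.0499). In a list of 30 hypoxia genes drawn up after the values were seen, 6 fell (with Stc2), none rose and 25 lay lower, with a median of -0.32. Over all tested genes 0.316% fell and 51.1% lay lower. The falls were known when the list was made, so its count restates that choice, and over all settings 0 to 9 fell. Of 21 glycolysis genes Slc2a1 alone fell, 9 lay higher and the median was -0.04.

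**Figure D4:**
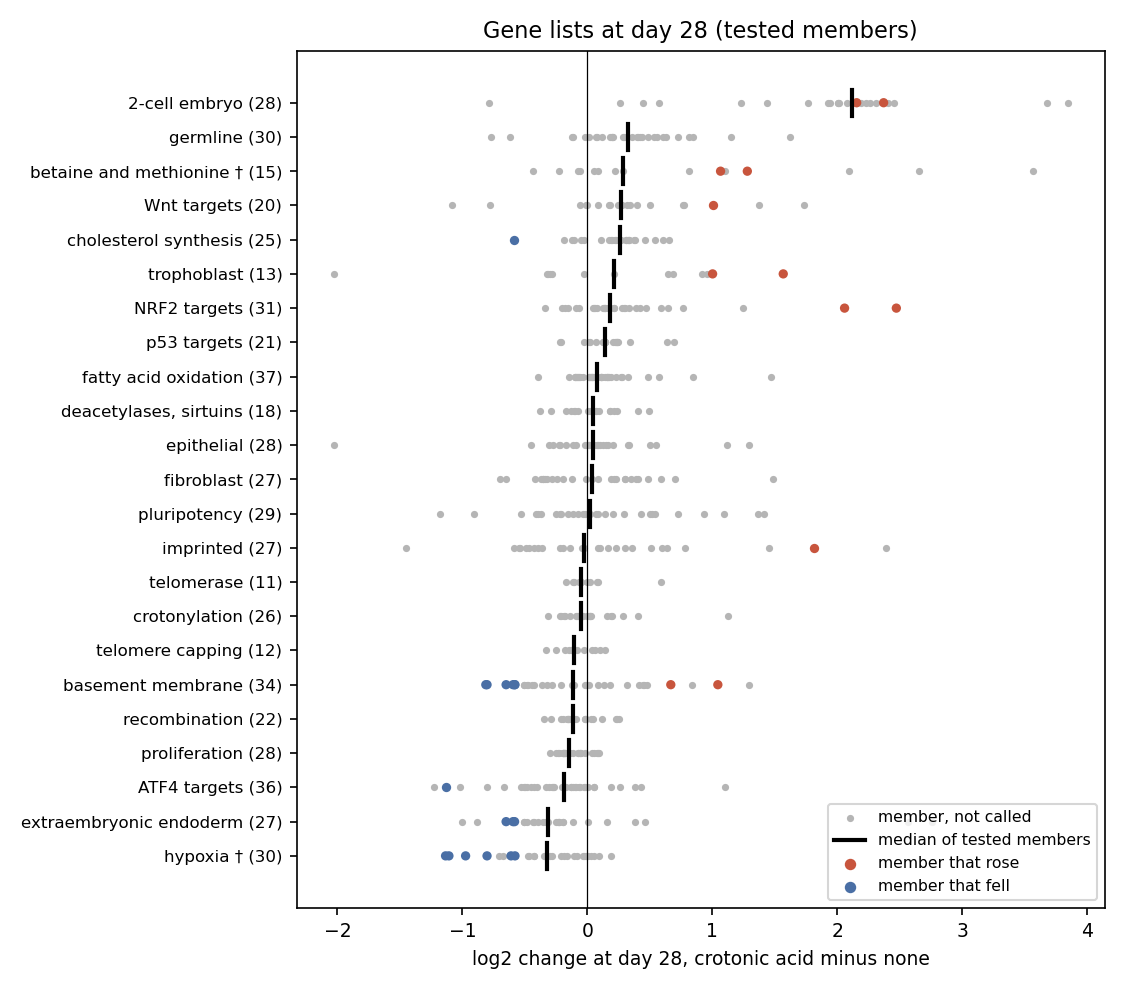
Log2 change at day 28 (crotonic acid minus none) of each tested member of 23 of the 43 gene lists, picked without a fixed rule and ordered by median; black bars are medians, red points rose, blue points fell, grey points did not pass, the number of tested members stands in brackets, and a dagger marks the 2 lists put together after values were seen. The drawn medians run from -0.32 for hypoxia genes to 2.12 for 2-cell embryo genes; among the lists not drawn, the endothelial one lies below that range and the hepatocyte one above it.

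Among the falls, Slc6a2, the noradrenaline transporter, was at 142 and 105 CPM untreated and 32.8 and 21.9 CPM treated, a log2 change of -2.18 ± 0.19 (adjusted p = 0.00238). Slc26a10, of an anion transporter family, was at 42.6 and 48.1 CPM and 8.19 and 14.5 CPM (log2 change -2.06 ± 0.24, adjusted p = 0.00567). The nucleoside carrier Slc28a3 had the largest fall of all called genes, from 4.65 and 3.33 CPM to 0.241 and 0.516 CPM (log2 change -3.33 ± 0.41, adjusted p = 0.00718), and its relative Slc28a2 fell by a log2 change of -1.56 ± 0.29 (adjusted p = 0.0473). Treated libraries were far below untreated ones in each. Ptger3, a receptor for prostaglandin E2, was at 16.03 and 21.5 CPM and 4.77 and 6.80 CPM (log2 change -1.70 ± 0.25, adjusted p = 0.0179). Ryr2, a calcium release channel, changed by -1.14 ± 0.18, Otof, a calcium sensor of hair cell synapses, by -1.14 ± 0.15, and the potassium channel gene Kcna1 by -1.40 ± 0.23 (adjusted p = 0.0248, 0.00941 and 0.0282). Among the remaining large falls were Nkg7, a granule protein of lymphocytes (log2 change -2.97 ± 0.54), the keratin gene Krt80 (-2.06 ± 0.39), Alpk3, a kinase of muscle (-1.94 ± 0.33), Plbd1 (-1.53 ± 0.28), Vwa5b2 (-1.34 ± 0.25) and Tent5c, a poly(A) polymerase (-1.41 ± 0.20). None of 13 neuronal or 11 striated muscle markers tested passed (medians -0.03 and 0.12).

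Genes of developmental signals were also among the falls. Fgf3, a fibroblast growth factor of the early embryo, was at 19.04 and 16.7 CPM untreated and 3.90 and 5.54 CPM treated (log2 change -1.97 ± 0.25, adjusted p = 0.00922), the 1 call of 18 FGF pathway genes tested (median 0.05). Of all tested genes 0.299% rose and 0.316% fell. Ntn1, the guidance cue netrin-1, was at 340.0 and 566 CPM and 163 and 237 CPM (log2 change -1.16 ± 0.13, adjusted p = 0.00528). For Ntn1 replicate 2 was the higher library in both groups, and the fall was of like size in each pair. Col13a1, a collagen that spans the cell membrane, was at 32.8 and 33.4 CPM untreated and 9.77 and 12.01 CPM treated (log2 change -1.62 ± 0.18, adjusted p = 0.00528). Sall1, a zinc finger factor of organ formation, changed by -0.97 ± 0.15 and Frzb, a secreted Wnt antagonist, by -0.72 ± 0.13 (adjusted p = 0.0251 and 0.0432).

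Among sterol genes 1 fell. Insig1, which helps to hold the transcription factor SREBP in the endoplasmic reticulum, was at 124 and 127 CPM untreated and 78.1 and 89.7 CPM treated (log2 change -0.59 ± 0.11, adjusted p = 0.0432). It was the 1 call of 25 sterol genes, of which 19 lay higher with a median of 0.26 (0.316% of all tested genes fell and 48.9% lay higher). Dhcr7, the last enzyme of cholesterol synthesis, was at 62.04 and 46.6 CPM and 78.96 and 90.5 CPM (log2 change 0.66 ± 0.14, adjusted p = 0.0748).

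The enzymes that add, read and remove crotonyl groups gave no call. None of 26 writers, readers and suppliers of crotonyl-CoA passed (median -0.05), nor did any of 18 deacetylases and sirtuins, whose log2 changes ran from -0.38 to 0.49. Hdac1 changed by 0.18 ± 0.12 (adjusted p = 0.659), Hdac3 by -0.07 ± 0.10 (adjusted p = 0.875) and Acss2, which makes acyl-CoA from short-chain acids, by 0.29 ± 0.12 (adjusted p = 0.408). Ffar3, a receptor for short-chain fatty acids, was at 10.6 and 10.2 CPM untreated and 24.4 and 20.4 CPM treated (log2 change 1.10 ± 0.28, adjusted p = 0.124). Telomere genes did not pass either. Tert, the catalytic subunit of telomerase, was at 4.55 and 6.42 CPM untreated and 6.98 and 9.52 CPM treated (log2 change 0.59 ± 0.23, adjusted p = 0.340). It had the smallest p of 11 telomerase genes (median -0.05), and among 12 capping genes (median -0.10) and 22 recombination genes (median -0.12) none passed. Lists of 8 DNA methylation genes, 20 histone methylation enzymes, 28 epithelial, 27 fibroblast, 28 proliferation, 25 interferon, 11 antigen presentation, 21 p53 target, 6 cell cycle inhibitor, 15 retinoic acid and 15 histone variant genes had no call, and of 20 Wnt targets Cdx2 alone rose. Over all tested genes 0.299% rose and 0.316% fell.

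Nearly all genes called at day 28 lay in the same direction after shorter exposure. The 3 effects were measured on separate libraries but in 1 fit. At day 24, after 8 days of the acid, 93 genes (0.535%) passed, and at day 20, after 4 days, 6 (0.0345%, with 8.52% at an unadjusted p of 0.05). Of the 52 raised genes, 51 (98.1%) lay higher at day 24 and 47 (90.4%) at day 20, where 70.5% and 64.7% of all genes higher at day 28 did so. Of the 55 lowered genes, 55 lay lower at day 24 and 52 (94.5%) at day 20, against 70.8% and 66.2% of all genes lower at day 28. In size the effect was smaller at day 20, with medians over the raised genes of 0.68, 1.25 and 1.47 at days 20, 24 and 28 and over the lowered genes of -0.48, -0.90 and -0.97. The genes were chosen by their day 28 values, so day 28 is favoured in that order.

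Slc7a11 changed by 1.56 ± 0.23 at day 20, 1.84 ± 0.23 at day 24 and 2.47 ± 0.24 at day 28, and Nqo1 by 1.43 ± 0.22, 1.59 ± 0.23 and 2.06 ± 0.24. Slc6a2 changed by -1.19 ± 0.19, -2.07 ± 0.19 and -2.18 ± 0.19. The untreated level of Slc7a11 was higher at the earlier day. It was at 4.75 and 3.06 FPKM at day 20 and 1.39 and 1.42 FPKM at day 28. Calcb was at 23.1 and 14.8 FPKM untreated at day 20 and at 4.91 and 2.84 FPKM at day 28, and its change with crotonic acid was 1.39 ± 0.16 and 2.49 ± 0.17 at those days.

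No gene passed the test of a difference between the day 28 effect and that of day 20 (460 at an unadjusted p of 0.05, 2.65%) or of day 24 (183, 1.05%) in edgeR. The 4 called genes with the smallest p for a difference from day 20 were Adcy1, Dmgdh, Calcb and Slc38a4, each with an adjusted p of 1. Adcy1, a calmodulin-stimulated adenylyl cyclase, changed by 0.25 ± 0.11 at day 20, -0.58 ± 0.11 at day 24 and -0.68 ± 0.11 at day 28. Slc38a4 changed by 0.37 ± 0.17, 1.24 ± 0.17 and 1.49 ± 0.17. DESeq2 called 1 gene in each of these tests: Adcy1 against day 20 (adjusted p = 0.0265) and, against day 24, the hepatocyte gene Fga, which was at 0 in both untreated day 28 libraries and in treated replicate 2.

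**Figure D5:**
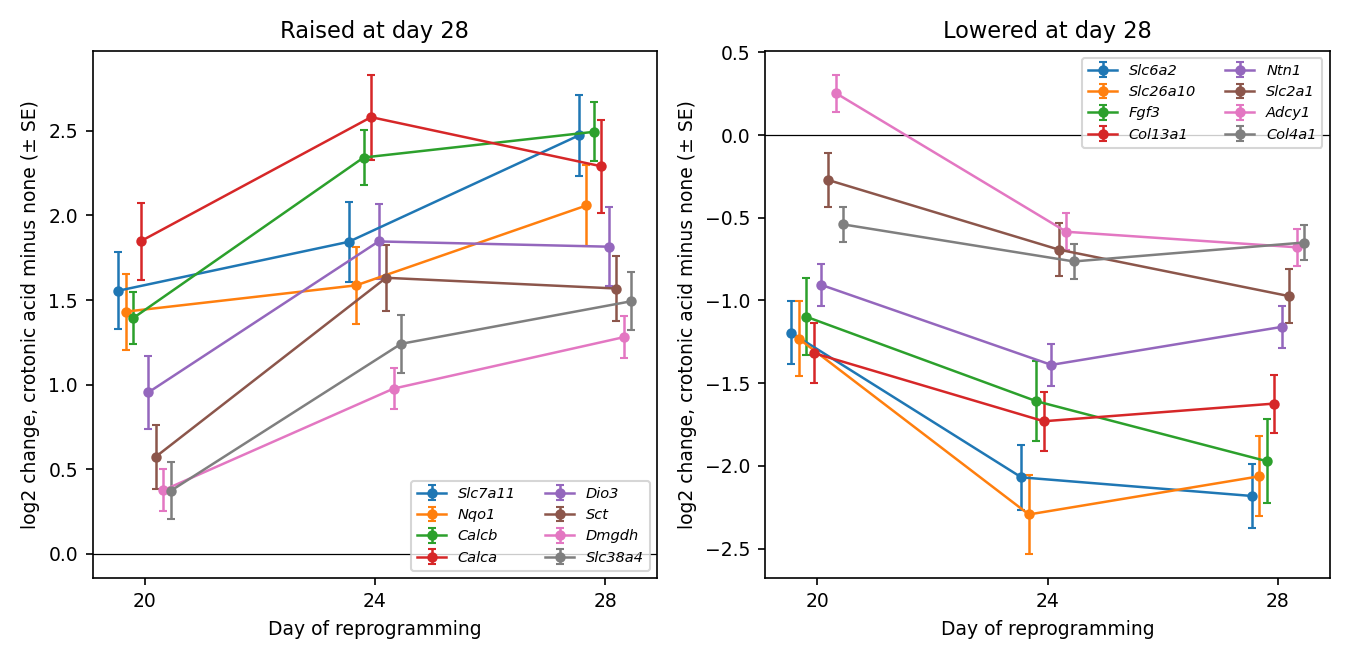
Log2 change with crotonic acid (crotonic acid minus none, vertical axis, with SE bars) at days 20, 24 and 28 (horizontal axis, points offset for sight) for 8 raised and 8 lowered genes chosen from the text. All 16 keep their day 28 direction at day 24, and Adcy1 alone lies on the other side of 0 at day 20.

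The levels of these genes in established lines were mixed. Of the raised genes 29 of 52 (55.8%) had a higher FPKM in the ES line than in MEF, and of the lowered genes 26 of 55 (47.3%), beside 47.8% of all tested genes. Dio3 rose with crotonic acid and was at 45.2 FPKM in the ES line, 49.1 in the three-step line and 9.002 and 10.3 in the crotonic acid lines. Calcb rose and was below 0.05 FPKM in all 4 of those lines. Genes under 1 FPKM in all 4 pluripotent lines made up 13 of the raised (25%), 23 of the lowered (41.8%) and 27.1% of the tested genes. Slc6a2 is one of the lowered: it was at 23.9 and 17.4 FPKM at day 16, 5.10 and 3.40 FPKM in treated day 28 cells, and no higher than 0.0329 FPKM in MEF or the lines. Col4a1 was at 612 and 789.9 FPKM at day 16, 682 and 798 FPKM in treated day 28 cells and 60.6 FPKM in the ES line. These lines are 1 library each and no test was made.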

How the data were processed

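Per the labels' protocols, total RNA (Qiagen mini kit) was made into sequencing libraries with NEBNext Ultra reagents for RNA. The authors deposited raw read counts per Ensembl gene (47643 identifiers, 419 of them with no symbol in the name table) and, from the same libraries, FPKM values. The aligner, the counter and its strand setting, and the genome build were not given in the sources used here, so reads from overlapping or antisense genes cannot be told apart. The deposited count table has 1 column of per-sample values that matched no label and was not used.

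Counts of 14 reprogramming libraries were fitted in edgeR 4.0.16 (R 4.3.3) with TMM scaling, a filter on low counts (filterByExpr, minimum count 10), group and replicate number as terms, and the quasi-likelihood F test, 2-sided, adjusted by Benjamini-Hochberg over 17387 genes at 0.05. The SE is the absolute log2 change divided by the square root of F. The numbers pair the libraries: over 21 pairs of groups, deviations of same-numbered libraries from their group means correlated at 0.186 to 0.513 (0.393 at day 28). The biological coefficient of variation was 14.3% with the block and 23.0% without. The 2 libraries of each day 28 group differed beyond sampling noise. Alternatives used DESeq2 1.42.0 and limma 3.58.1.

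Genes named were the 12 largest rises and falls among called genes whose groups did not overlap and whose higher group averaged 5 CPM or more, the called and lowest-p members of 43 gene lists, and a fixed set of factors. Other genes, such as Apela, Spp1, Ntn1, Crot, Slc28a3, Meg3 and Slc34a2, were chosen after their values were seen. A gene among the 107, and the list that holds it, are not reported here. The members and lists were chosen with earlier results of these data known, and 2 lists were added after the day 28 values. Counts for lists are descriptions and no set test was made. They stand beside shares over all tested genes of 0.299% that rose, 0.316% that fell and 48.9% that lay higher.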

Additional observations from a re-analysis of the deposited data

How the results depend on the processing

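All 107 calls at day 28 kept their direction in each alternative that tested them. The alternatives reuse the libraries by which the 107 were chosen, so the kept directions support nothing. With the replicate number left out of the fit (no replicate block) 0 genes passed, with 0 higher and 0 lower, and of the calls 106 lay in the same direction at day 24 and 98 at day 20. The count of calls (higher and lower) was 378 (215 and 163) with no filter on low counts, 371 (188 and 183) with DESeq2, 169 (101 and 68) with limma-voom, 87 (47 and 40) and 58 (31 and 27) with limma on log2(FPKM + 1) and on log2(FPKM + 0.1), 178 (95 and 83) with the compared groups alone, 475 (237 and 238) without the day 16 libraries, and 108 (56 and 52) and 120 (77 and 43) with RLE and total count scaling. Without both libraries that hold liver transcripts, an alternative chosen after seeing the data, it was 3 (2 and 1). With 1 library left out it ran from 11 to 477, with 6 to 233 higher and 3 to 244 lower; the cause was not tested. Total count scaling moved the median of all genes to 0.06. Of the differences between days, DESeq2 called 1 against day 20 and 1 against day 24, and each other alternative 0. The 2-cell list had 0 to 15 rises over its 26 settings. Genes with more counts had a smaller SE: the median SE of the log2 change was 0.502 over 4487 genes with a mean under 50 counts at day 28, of which 7 passed, and 0.124 over 5034 genes with 1000 or more, of which 42 passed.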
